A study of Rattus norvegicus and Mus musculus with 18 samples.

Results

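The ureteric bud was compared with the metanephric mesenchyme of the rat kidney at embryonic stage E13.5 on the second of 3 Affymetrix rat array designs, called design B here. The arrays were those titled UB 1B and UB 2B (bud) and MM 1B and MM 2B (mesenchyme), which are 4 of the 18 arrays of the series, and every probe set of the design was considered. A probe set is a group of short oligonucleotides that together report 1 transcript. The bud RNA came from a pool of about 1200 ureteric buds and the mesenchyme RNA from about 240 mesenchymes of E13.5 rats, a stage at which the bud has branched into a T shape. Both tissues were freed from each other with pins after 10 min in DNase and trypsin, and the labels name no strain and no treatment beyond this. Each array holds 1 of 2 labelings of the same pooled RNA, made from 1 ug each, so p-values measure the spread of labelling and hybridisation and not the spread between animals. The other 14 arrays are 4 rat arrays on each of the other 2 designs, hybridised with the same tissues, and 6 arrays of E12.5 mouse kidney divided into tips of the bud, its stalks and mesenchyme.

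The ureteric bud is an epithelial tube that grows out of the nephric duct, branches repeatedly and becomes the collecting duct system and the ureter. The metanephric mesenchyme around it holds the progenitors of the nephron, which carry transcription factors such as Wt1 and the Hox genes of the posterior body, and the progenitors of the stroma, and blood vessels grow among them. Epithelial cells of the bud are joined by E-cadherin, whereas mesenchymal cells carry N-cadherin and cadherin 11. Reciprocal signals, among them GDNF, fibroblast growth factors, Wnt proteins, bone morphogenetic proteins and retinoic acid, pass between these tissues as the bud branches.

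Design B carried 8732 probe sets besides controls, of which 5351 carried a single gene symbol (1 each), 38 more than that and 3343 no symbol. They represented 4281 genes. A probe set was tested when the mean of at least 1 tissue reached an intensity of 118, the median of the table, which left 4667 probe sets and 2973 genes. A probe set below 118 in 1 tissue was therefore tested only where the other tissue was brighter. This bears on the shares of list members called below. All values below are quantile-normalised intensities unless stated otherwise, and all differences are bud minus mesenchyme on the log2(intensity + 16) scale, which understates the change of dim probe sets. Intensities of different probe sets are not comparable as levels. A probe set was called when limma's adjusted p was under 0.05 and the difference at least 2-fold.

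Few of the usual defining genes of the tissues lie on this design. Of 12 bud markers, Cdh1 and Krt19 were present. Cdh1, encoding E-cadherin, had intensities of 1746 and 1492 on the bud arrays, against 86.9 and 73.2 on the mesenchyme arrays. The keratin gene Krt19 did not separate the tissues, with 238 and 186 in bud and 236 and 221 in mesenchyme (difference -0.11, adjusted p = 0.631). Of 11 mesenchyme markers, Wt1 and Itga8 were present and both were lower in bud. Wt1 had 39.3 and 48.4 in bud, against 974 and 729.9 in mesenchyme. Cdh1, Wt1 and Itga8 thus fit the labels.

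The second bud array stood apart in its control probe sets. Probe sets placed in the 5', middle and 3' parts of the Gapdh transcript show how evenly RNA was copied along its length. The ratio of 3' to 5' deposited intensity was 5.28 on UB 2B, against 1.47 on UB 1B and 1.39 and 1.38 on the mesenchyme arrays. For Actb it was 2.77 on UB 2B, 1.45 on UB 1B and 1.29 and 1.13 on the mesenchyme arrays. Gapdh 5' intensity was 1737 on UB 2B and between 6003 and 6411 on the other arrays, while the 3' intensity of Gapdh was 9171 on UB 2B and 8838 on UB 1B. For Actb the 3' intensity was lower as well, at 2978 on UB 2B and 8544 on UB 1B. The main results below are therefore also given with UB 1B as the only bud array. In that fit the lone bud array is assumed to vary as the mesenchyme arrays do.

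**Figure D1:**
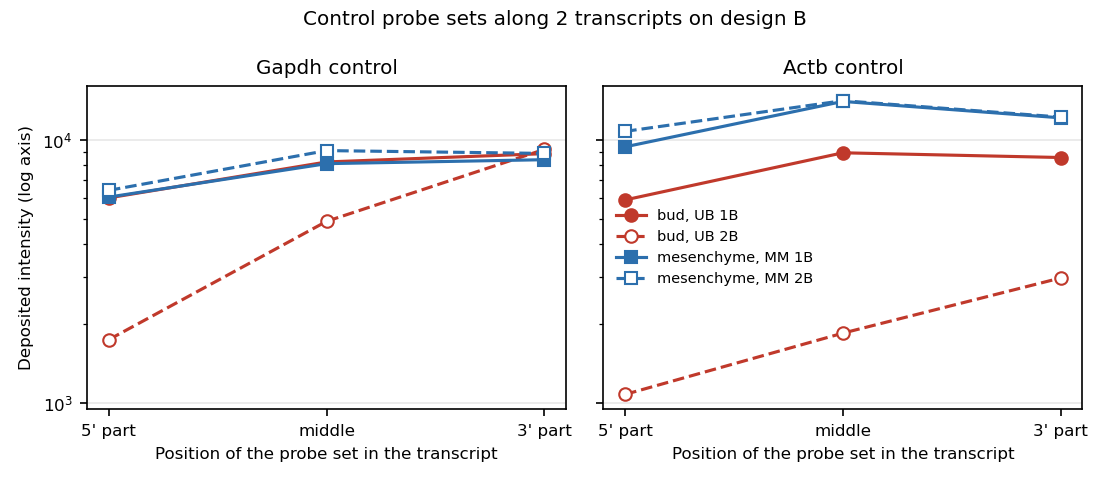
Deposited intensity (log axis) of the control probe sets in the 5' part, middle and 3' part of Gapdh (left) and Actb (right) on the 4 arrays of design B. Circles are bud, squares mesenchyme; filled symbols are the first labeling and open symbols the second. UB 2B falls towards the 5' part of both transcripts, to 1737 for Gapdh, while UB 1B lies near the mesenchyme arrays for Gapdh.

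Bud and mesenchyme differed at 271 of 4667 tested probe sets (5.81%). In bud 143 probe sets were higher (3.06%) and 128 lower (2.74%). Counted as genes, each by its brightest probe set with 1 symbol, 161 of 2973 were called (5.42%), of which 95 were higher in bud (3.2%) and 66 lower (2.22%), and the median over all tested genes was 0.01. In each of the 271 probe sets both bud arrays lay beyond both mesenchyme arrays, which the call nearly requires. With UB 1B as the only bud array the counts were 141 probe sets higher (3.02%) and 120 lower (2.57%), or 88 genes (2.96%) and 66 genes (2.22%). With UB 2B as the only one they were 160 probe sets (3.43%) and 210 (4.5%), or 106 genes (3.57%) and 122 (4.1%), so the second labeling added calls mainly on the lower side. With UB 1B alone 79 of the 95 higher genes and 57 of the 66 lower genes were also called. All 25 genes that were at least 4-fold higher and all 17 that were at least 4-fold lower were among them. In RNA from pooled tissue, fewer cells of a type and less RNA per cell cannot be told apart.

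The gene with the largest difference was Aldh1a3, which encodes an aldehyde dehydrogenase that makes retinoic acid. Its intensities were 3826 and 4521 in bud, against 38.0 and 36.5 in mesenchyme (difference 6.29, SE 0.12, adjusted p = 1.51e-05). Both mesenchyme values lay below the intensity that a tissue mean had to reach for a test, and both bud values far above it. Rdh10, the retinol dehydrogenase of the step before it, had 1513 and 1599.7 in bud and 362 and 327 in mesenchyme (difference 2.13, SE 0.12, adjusted p = 0.00022). A second Rdh10 probe set gave 137 and 115 in bud and 144 and 128 in mesenchyme, so the gene rested on 1 of its probe sets. With UB 1B alone the differences were 6.17 for Aldh1a3 and 2.09 for Rdh10. These 2 were the called members among 8 tested retinoid genes, to be read beside the 5.42% of all genes that were called. The other 6 lay below 0, and the list median was -0.10. An unadjusted p under 0.05 was reached by 2 members above 0 and 3 below it, beside 19.2% and 13.6% of all genes. An adjusted p under 0.05 was reached by 2 above 0 and 2 below it. The retinoic acid hydroxylase Cyp26b1 (-0.63, adjusted p = 0.0242) and the retinol transporter Stra6 (-0.12, adjusted p = 0.661) were not called.

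Transcription factor genes of the bud and its nephric duct origin, and the ligand gene Bmp7, were also higher in bud. Emx2, a homeobox gene needed for the bud to branch in mouse, had 556 and 397 in bud and 21.2 and 18.5 in mesenchyme (difference 3.76, SE 0.18, adjusted p = 0.000125). Etv1, an ETS factor of the family that answers growth factor receptors, had 269.9 and 444 in bud and 42.4 and 42.4 in mesenchyme. Its difference was 2.64 (SE 0.22, adjusted p = 0.00106), and a second probe set gave 1.89. Tfap2a, an AP-2 factor of epithelia, had 175 and 234 in bud and 64.4 and 64.3 in mesenchyme (difference 1.44, adjusted p = 0.0026). The ligand gene Bmp7 had 571 and 630.1 in bud and 260.3 and 276 in mesenchyme (difference 1.12, adjusted p = 0.00185). As in every called probe set, neither bud array overlapped the mesenchyme arrays. Emx2, Etv1 and Tfap2a reached the intensity needed for a test through their bud mean only. Against mesenchyme, UB 1B alone gave 3.998 for Emx2, 2.29 for Etv1, 1.25 for Tfap2a and 1.05 for Bmp7, each still called.

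The list of ureteric bud and nephric duct genes had 57 entries, of which 12 were on the design and 9 were tested. Aldh1a3, Emx2, Tfap2a and Bmp7 were called higher (44.4%, beside 3.2% of all genes) and 0 were called lower, with a median of 0.52. The members that were not called included the ETS gene Etv5 (0.24, adjusted p = 0.151) and Spry2, an inhibitor of receptor signalling (0.24, adjusted p = 0.346). Among 13 tested genes of growth factor receptor signalling and its feedback, Etv1 was called higher and 0 were called lower. That is 7.69%, near the 5.42% of all genes that were called.

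**Figure D2:**
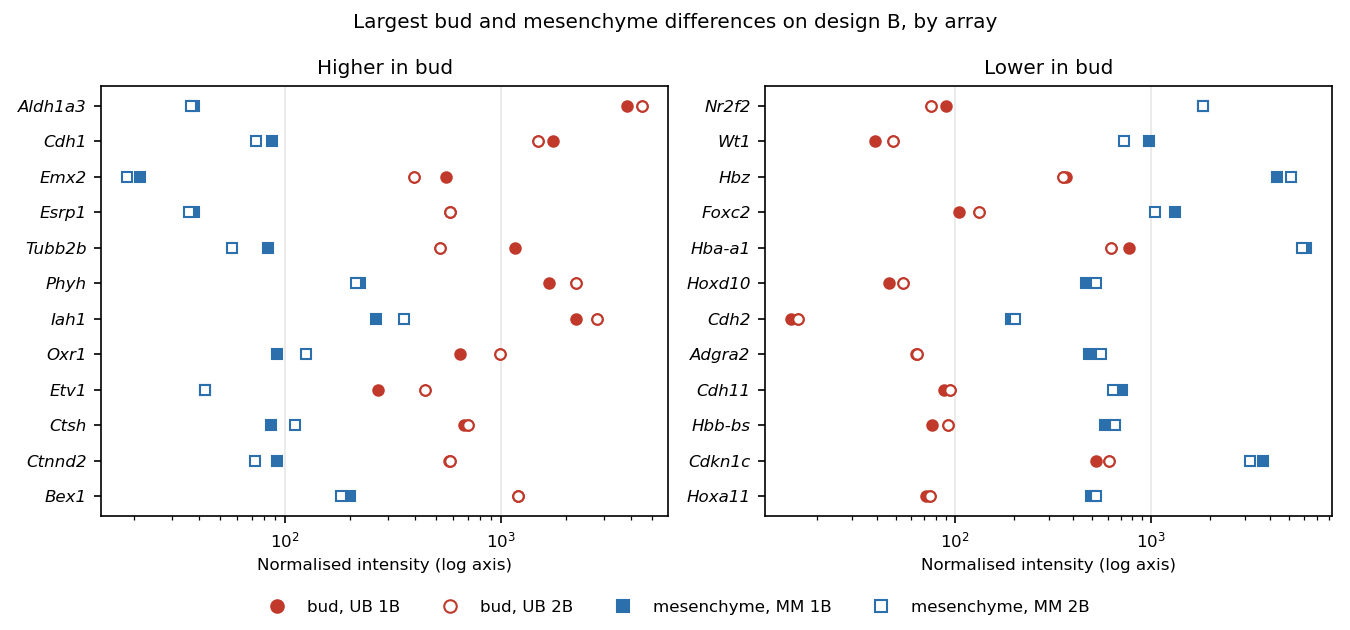
Normalised intensity (log axis) on each array for the 12 genes with the largest called difference in each direction, sorted by size. Circles are bud and squares mesenchyme, filled for the first labeling and open for the second. The 24 genes were picked for large differences on both bud arrays, so the lack of overlap between the tissues follows from the choice. For Aldh1a3 the bud arrays lie at 3826 and 4521 and the mesenchyme arrays at 38.0 and 36.5.

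Many genes that build epithelia were higher in bud. Of 22 tested genes of epithelial junctions and polarity 11 were higher (beside 3.2% of all genes) and 0 were lower, with a median of 0.96. The number was 9 with UB 1B alone and 6 with a pseudocount of 64, and the median was 0.36 with no filter on dim probe sets. Of the 11, Cdh1, Esrp1, Dsc2, Perp, Cobl, Pals1 and Myo6 reached the intensity needed for a test through their bud mean only. The filter thus favoured members that were higher in bud among those dim in mesenchyme. Cdh1 differed by 4.09 (SE 0.13, adjusted p = 4.84e-05). Esrp1, which directs the epithelial pattern of splicing, had 583 and 578 in bud and 37.9 and 35.7 in mesenchyme (difference 3.50, SE 0.10, adjusted p = 4.84e-05). St14, a protease on the surface of epithelial cells, had 1207 and 1285 in bud and 209.6 and 232 in mesenchyme (difference 2.41, adjusted p = 0.000125). Cldn6, a tight junction protein of embryonic epithelia, had 1460.0 and 1181 in bud and 268 and 311 in mesenchyme (difference 2.12, SE 0.15, adjusted p = 0.000567). The bud arrays were the brighter in all of them, as in every gene called higher.

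The other called members had smaller differences. They were the desmosomal cadherin Dsc2 (1.54), the desmosome-associated Perp (1.42), the small GTPase Rab25 (1.38), the actin nucleator Cobl (1.33), the polarity protein Pals1 (1.09), the motor protein Myo6 (1.00) and the laminin chain Lama5 (2.09). Perp had 2 tested probe sets, and its dimmer one gave 178 and 199.6 in bud against 12.6 and 13.4 in mesenchyme, a difference of 2.82. With UB 1B alone Pals1 (0.85) and Myo6 (0.96) fell short of 2-fold and the other 9 were called. Without MM 1B Pals1 (0.98, adjusted p = 0.057) and Myo6 (0.94) were not called either. Not all genes of the list moved this way. The junction protein Cldn4 differed by 0.92 (adjusted p = 0.00469), short of 2-fold, and Shroom3, which constricts the apical surface of epithelia, by -0.82, with 251 and 245 in bud and 458 and 440.2 in mesenchyme.

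The promoters of the called epithelial genes were read for CAGGTG, the E-box that Snail and Zeb repressors bind in the Cdh1 promoter. Promoter here means 250 bases before to 50 bases after the transcript start, from RefSeq on build GRCr8, and 49 of the 72 named genes were matched to one. It was 1 of 7 motifs searched, all chosen with the results known. Both strands were searched (CAGGTG or CACCTG), and a match is a description of these letters. It was present in 18.7% of all 27457 promoters and in 16.9% of those of 2512 tested genes. Of the genes called higher 29.2% of 72 held it, and of those called lower 14.9% of 47. Of the others, the HNF1 motif GTTAAT was in 6.94% of the higher, 4.26% of the lower and 3.9% of the tested genes' promoters. The GATA motif AGATAA was in 6.94%, 0% and 5.49%, the TCF/LEF motif CTTTGA in 9 of 72, 4 of 47 and 11.3%, the ETS motif CCGGAAGT in 4.17%, 0% and 9.2%, and the GRHL motif AACCGGTT in 0%, 0% and 0.199%. The seventh, a TEAD motif, is given further on. Of the epithelial list 8 called members had a promoter and 6 held it (Cldn6, Cobl, Dsc2, Lama5, Perp and Rab25), as did Elf3 and Tmem30b among 6 members that were not called. The promoters shown are 3 of those of called genes with 2 or more matches. They include that of Wfdc2, a secreted protease inhibitor. Capitals mark the motif on either strand.
Cldn6, chr10:13215558-13215857, plus strand: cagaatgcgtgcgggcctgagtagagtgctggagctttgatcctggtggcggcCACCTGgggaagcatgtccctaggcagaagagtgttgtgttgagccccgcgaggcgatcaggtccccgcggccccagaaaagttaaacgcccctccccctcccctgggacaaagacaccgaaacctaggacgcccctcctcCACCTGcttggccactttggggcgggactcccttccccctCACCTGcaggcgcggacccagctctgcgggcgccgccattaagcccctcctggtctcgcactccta
Rab25, chr2:176304172-176304471, minus strand: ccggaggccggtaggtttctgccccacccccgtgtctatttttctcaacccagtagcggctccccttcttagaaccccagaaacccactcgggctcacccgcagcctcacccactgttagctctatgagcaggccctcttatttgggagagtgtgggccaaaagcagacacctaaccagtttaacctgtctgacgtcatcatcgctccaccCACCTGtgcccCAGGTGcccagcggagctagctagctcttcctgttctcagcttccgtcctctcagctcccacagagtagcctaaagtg
Wfdc2, chr3:173706225-173706524, plus strand: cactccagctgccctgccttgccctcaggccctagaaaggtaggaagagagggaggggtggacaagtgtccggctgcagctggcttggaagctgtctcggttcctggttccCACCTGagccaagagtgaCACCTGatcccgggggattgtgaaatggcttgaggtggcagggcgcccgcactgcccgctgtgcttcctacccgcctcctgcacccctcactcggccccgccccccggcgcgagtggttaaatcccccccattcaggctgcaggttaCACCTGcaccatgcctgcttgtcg

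Cldn6 and Wfdc2 each hold 3 matches and Rab25 holds 2, which lie 39 and 28 bases before the start. Rab25, which recycles membrane to the cell surface, had 628 and 649 in bud and 242 and 230.1 in mesenchyme (adjusted p = 0.000713). Wfdc2 had 2047 and 2009 in bud and 465 and 369 in mesenchyme (difference 2.25, SE 0.15, adjusted p = 0.000434). As in every gene called higher, the bud arrays of Rab25 and Wfdc2 lay above the mesenchyme arrays. With UB 1B alone their differences were 1.35 and 2.26. Snai1, the Snail gene on this design, was not called, with 329 and 321 in bud and 617 and 585 in mesenchyme (difference -0.85, adjusted p = 0.00408).

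The classical cadherins on the design divided between the tissues. Cdh1 and Cdh3, P-cadherin, were higher in bud, and Cdh2, Cdh11 and the endothelial Cdh5 were lower. Cdh3 had 733 and 609.7 in bud and 269.6 and 243 in mesenchyme (difference 1.33, adjusted p = 0.00185). Cdh2, N-cadherin, had 14.66 and 16.02 in bud, against 194 and 202 in mesenchyme (difference -2.77, SE 0.15, adjusted p = 0.000171). Its bud values lay far below the median of the table. Cdh11 had 88.1 and 94.5 in bud and 713 and 639 in mesenchyme (difference -2.69, SE 0.11, adjusted p = 8.26e-05). Of 13 tested cadherins and adhesion molecules 3 were higher and 4 lower (53.8% called, beside 5.42% of all genes). Cdh1 was tested through its bud mean only, and Cdh2, Cdh11 and Cdh5 through their mesenchyme means only. The other called members were the laminin receptor Bcam (1.01) and the integrin-associated Cd47 (-1.16). With UB 1B alone the directions stayed, and Bcam at 0.98 was no longer called, nor was it without MM 1B (0.92, adjusted p = 0.0656). Dchs1, a large atypical cadherin, was called lower with UB 1B alone (-1.07) but not with both bud arrays (-0.87, adjusted p = 0.0169). Ctnnd2, a delta-catenin that binds the tail of cadherins, had 576 and 579 in bud and 91.2 and 72.6 in mesenchyme (difference 2.61, adjusted p = 0.000125), and 2.60 with UB 1B alone.

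Basement membrane genes also went both ways, with 44.4% of those tested called, beside 5.42% of all genes. The laminin chains Lama5 and Lamc1 were higher in bud. Lama5 had 913 and 981 in bud and 233 and 188 in mesenchyme, and Lamc1 differed by 1.69 (adjusted p = 0.000478), with 1356 and 1387 in bud and 408 and 422 in mesenchyme. Col4a2, a chain of type IV collagen, was lower, with 556 and 784 in bud and 1630.0 and 1700.4 in mesenchyme (difference -1.31, adjusted p = 0.00638). Its partner chain Col4a1 lay at 828 and 628 in bud and 1599.7 and 1253 in mesenchyme, a difference of -0.96 that missed the 2-fold limit. Of 9 tested genes 2 were higher and 2 lower, Itga8 being the other, with the same calls for UB 1B alone.

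Transcription factors of the mesenchyme were among the genes lower in bud. Nr2f2, the nuclear receptor COUP-TFII, had 90.2 and 75.7 in bud, against 1835 and 1822 in mesenchyme (difference -4.22, SE 0.12, adjusted p = 4.84e-05). Wt1, the Wilms tumour gene that nephron progenitors need, differed by -3.85 (SE 0.16, adjusted p = 8.33e-05). Foxc2, a forkhead gene of mesenchyme, had 105 and 134 in bud and 1325 and 1049 in mesenchyme (difference -3.15, SE 0.16, adjusted p = 0.000158). The mesenchyme arrays were the brighter in each of them, with no overlap, as in every gene called lower. Hic1, a repressor found in mesenchymal cells, was lower by a smaller amount, with 207 and 197 in bud and 697 and 573 in mesenchyme (difference -1.57, adjusted p = 0.000954). UB 1B alone gave -4.12, -3.96, -3.30 and -1.54 for these genes in the order above.

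Of 9 tested nephron progenitor genes 4 were lower in bud (44.4%, beside 2.22% of all genes) and 0 higher, with a median of -0.89. They were Wt1, Hoxa11, Hoxd10 and Itga8, the integrin chain that mesenchymal cells use to receive a signal from the bud. All 4 reached the intensity needed for a test through their mesenchyme mean only, so the filter favoured this direction for them. Itga8 had 21.6 and 37.3 in bud and 157 and 149 in mesenchyme (difference -1.91, SE 0.20, adjusted p = 0.00236). Cited1, a transcriptional cofactor of the cap mesenchyme, had 356 and 423 in bud and 669 and 804 in mesenchyme. Its difference of -0.89 (adjusted p = 0.0113) was short of 2-fold, while UB 1B alone gave -1.01 and a call. The homeobox gene Six4 lay at 0.27 (adjusted p = 0.354).

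Stromal and interstitial genes numbered 23 tested, with a median of -0.45. Of these 6 were called lower in bud (26.1%, beside 2.22% of all genes) and 0 higher. Of the 6, Nr2f2, Cdh2 and Cdh11 reached the intensity needed for a test through their mesenchyme mean only. By direction 20 of the 23 lay below 0 and 3 above it. The 3 were Fbln2 (0.77, adjusted p = 0.00764), Mdk (0.53, adjusted p = 0.0538) and Fstl1 (0.43, adjusted p = 0.104). Fbln2 had 400 and 433 in bud and 253 and 222 in mesenchyme. Besides Nr2f2, Foxc2, Cdh2, Cdh11 and Hic1, the Wnt-binding protein gene Sfrp2 was called, with 446 and 454 in bud and 1812 and 1576 in mesenchyme (difference -1.87, SE 0.13, adjusted p = 0.000519). The same 6 were called with UB 1B alone. Of 14 tested collagens and other matrix genes Col8a2 was called lower (-1.94) and 0 higher, with a median of -0.45. That is 7.14%, near the 5.42% of all genes that were called. By direction, though, 11 of the 14 lay below 0. At an unadjusted p under 0.05, 10 passed below 0 and 1 above it, beside 13.6% and 19.2% of all genes. An adjusted p under 0.05 was reached by 8 below 0 and 1 above it, most of them short of 2-fold. Fibrillin 2, Fbn2, differed by -0.98 (adjusted p = 0.0132). Adgra2, an adhesion receptor that acts in Wnt signalling of vessels, had 63.3 and 64.4 in bud and 479 and 557 in mesenchyme (difference -2.74, adjusted p = 8.33e-05). UB 1B alone gave -1.98 for Col8a2 and -2.75 for Adgra2.

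**Figure D3:**
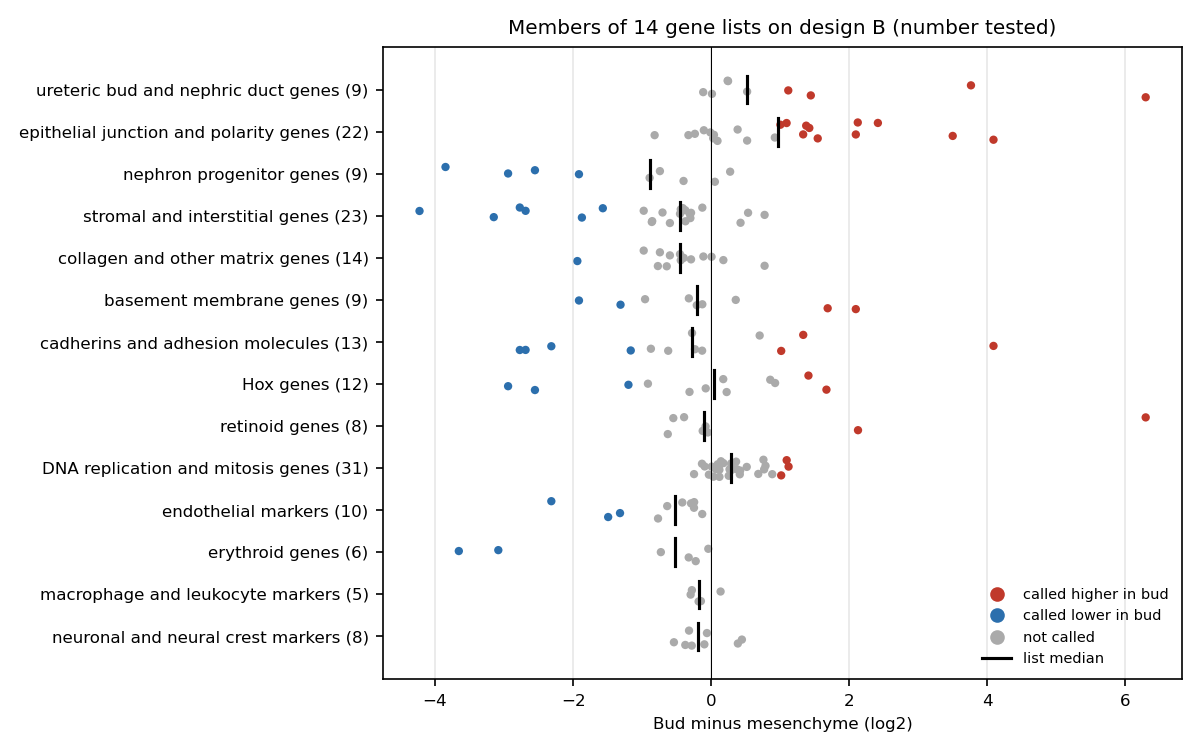
Bud minus mesenchyme difference (log2) of every tested member of 14 gene lists, 1 point per gene, with the number tested beside each list name. Red points were called higher in bud, blue points lower, grey points were not called, and the black bar is the list median. The epithelial list has its median at 0.96 (0.36 with no filter on dim probe sets) and the nephron progenitor list at -0.89, while Hox genes and cadherins have called members on both sides.

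Hox genes were called in both directions, 41.7% of those tested, beside 5.42% of all genes. Hoxb6 had 1614 and 1621 in bud and 545 and 454 in mesenchyme (difference 1.67, adjusted p = 0.000977). Hoxd8 differed by 1.41 (adjusted p = 0.000676), with 494 and 447 in bud and 167 and 167 in mesenchyme. The more posterior Hoxd10 had 46.1 and 54.7 in bud and 465 and 523 in mesenchyme (difference -2.94, SE 0.12, adjusted p = 8.33e-05). Within the D cluster the neighbours Hoxd8 and Hoxd10 thus lay on opposite sides, and Hoxd9 between them was at -0.08. Hoxa11, which patterns nephron progenitors together with its paralogues, had 71.3 and 74.9 in bud and 493 and 521 in mesenchyme (difference -2.55), and a second probe set gave -2.93. Hoxc9 differed by -1.20 (adjusted p = 0.00311). Hoxd10, Hoxa11 and Hoxc9 reached the intensity needed for a test through their mesenchyme mean only. Hoxd3 (0.93), Hoxc5 (0.86) and Hoxb1 (-0.92) were not called. Of 12 tested Hox genes 2 were higher and 3 lower, with a median of 0.05 and the same calls for UB 1B alone.

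Signalling genes outside these groups had 0 to 2 calls per list, to be read beside the 5.42% of all genes that were called. Of 15 tested Wnt pathway genes the receptor gene Fzd6 was higher and Sfrp2 lower. Fzd6 had 253 and 204 in bud and 78.0 and 97.4 in mesenchyme (difference 1.24, adjusted p = 0.00408). The Wnt targets Ccnd1 (0.77) and Rnf43 (0.73) had adjusted p of 0.014 and 0.00995 but were under 2-fold. The Wnt list as a whole had a median of -0.23, with 4 of the 15 above 0 and 11 below it. An adjusted p under 0.05 was reached by 3 members above 0 and 3 below it. Of 8 tested TGF-beta and BMP pathway genes Bmp7 was called, and of 12 axon guidance genes Efnb1, an ephrin ligand, with 211 and 347 in bud and 795 and 746 in mesenchyme (difference -1.45, adjusted p = 0.00875). Of 13 proteoglycan genes Glce, which epimerises heparan sulfate, was higher, with 260.3 and 269.9 in bud and 99.5 and 101 in mesenchyme (difference 1.28). UB 1B alone kept these calls, at 1.38 for Fzd6, -1.79 for Efnb1 and 1.25 for Glce. Of 11 tested Notch pathway genes and 4 early nephron genes 0 were called, and their medians were -0.05 and 0.18. At an unadjusted p under 0.05, 3 of the Notch genes passed (1 above 0, 2 below) and 2 early nephron genes (both above 0). Of all tested genes 19.2% passed above 0 and 13.6% below it. The tested members of the Hedgehog and the adrenal and gonadal lists, Ihh (-0.21) and Nr5a1 (-0.28), were not called.

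Ccn2, a matricellular protein whose gene answers YAP and TEAD factors, was lower in bud. It had 80.5 and 96.2 in bud, against 285 and 256 in mesenchyme (difference -1.46, SE 0.13, adjusted p = 0.00112) and -1.57 with UB 1B alone. Its promoter is printed because it holds 3 copies of GGAATG, the TEAD motif, in capitals. Searched on both strands as GGAATG or CATTCC, this motif was in 13.9% of all promoters and in 11.1% of those of tested genes. It was in 16.7% of the promoters of genes called higher and in 8.51% of those called lower. Ccn2 was the called gene among 11 tested immediate-early and stress genes (9.09%, beside 5.42% of all genes), a list whose median was 0.01.
Ccn2, chr1:22624565-22624864, minus strand: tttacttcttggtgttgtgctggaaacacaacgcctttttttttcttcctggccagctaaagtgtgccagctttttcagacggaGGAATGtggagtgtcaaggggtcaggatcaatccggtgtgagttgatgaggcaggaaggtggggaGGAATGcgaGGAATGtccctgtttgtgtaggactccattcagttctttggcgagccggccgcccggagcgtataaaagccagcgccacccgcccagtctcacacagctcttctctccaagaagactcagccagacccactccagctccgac

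Enzymes and transporters supplied several of the large bud differences. Phyh, a peroxisomal enzyme that breaks down phytanic acid, had 1664 and 2223 in bud and 223 and 214 in mesenchyme (difference 3.05, SE 0.16, adjusted p = 0.000171). Iah1, an esterase named for isoamyl acetate, had 2229 and 2789.8 in bud and 264 and 355 in mesenchyme (difference 2.96, adjusted p = 0.000354). Ctsh, a lysosomal cysteine protease, had 672 and 703 in bud and 86.1 and 110.5 in mesenchyme (difference 2.63, adjusted p = 0.000148). In all 3 both bud arrays lay far above the brighter mesenchyme array. Kcnk1, a potassium leak channel of epithelia, had 304 and 339.9 in bud and 53.9 and 62.0 in mesenchyme (difference 2.19, adjusted p = 0.000195). For these 4 genes UB 1B alone gave 2.84, 2.80, 2.60 and 2.11.

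Ctsh, St14 and Wfdc2 were the called members of 11 tested secreted and membrane proteases and inhibitors (27.3%, beside 5.42% of all genes). A serpin gene of that list, Serpinb6a, lay at 0.99 with both bud arrays and at 1.13 with UB 1B alone, where it was called. Of 21 tested ion channels, pumps and carriers 14.3% were called, beside 5.42% of all genes. Kcnk1 was higher, and the chloride channel protein Clic4 (-1.07, adjusted p = 0.0191) and the cotransporter Slc12a2 (-1.01, adjusted p = 0.00913) were lower. With UB 1B alone Clic4 gave -0.76 and Slc12a2 -0.81, and neither was called. Clic4 was also not called without MM 1B (adjusted p = 0.08) or without MM 2B (adjusted p = 0.0751), nor was Slc12a2 without MM 2B (adjusted p = 0.0596).

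Other genes with large bud differences have roles outside the lists. Oxr1, which protects cells against oxidation, had 644 and 988 in bud and 91.5 and 125 in mesenchyme (difference 2.73, adjusted p = 0.00101). Bex1, a small adaptor protein known from neurons, had 1200.2 and 1194 in bud and 199 and 181 in mesenchyme (difference 2.56, adjusted p = 8.33e-05). Tubb2b, a beta-tubulin, had 1163 and 519 in bud, against 82.8 and 56.7 in mesenchyme (difference 3.23, SE 0.36, adjusted p = 0.0029). Its bud arrays differed from each other by more than 2-fold, and UB 1B alone gave 3.80. Probe sets without a gene symbol reached the same size. The probe set rc_AA926360_at had 616 and 529.7 in bud and 19.5 and 21.2 in mesenchyme (difference 4.01), and rc_AA925924_g_at differed by 3.90. In the other direction rc_AA964269_at had 16.3 and 16.9 in bud and 332 and 318 in mesenchyme (difference -3.39), and rc_AA956304_at differed by -3.19. With UB 1B alone Oxr1 gave 2.42 and Bex1 2.56, and all 4 unnamed probe sets were called.

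A minority of the genes of DNA replication and mitosis were called by their brightest probe set, all of them higher in bud. Of 31 tested 3 were higher (9.68%, beside 3.2% of all genes), namely the proliferation antigen gene Mki67 (1.09) and the mitotic kinase genes Plk4 (1.01) and Ttk (1.12), and 0 were lower, with a median of 0.29. Of the 31, 27 lay above 0, beside 50.6% of all tested genes. At an unadjusted p under 0.05, 15 passed above 0 and 0 below it, beside 19.2% and 13.6% of all genes. The median was 0.21 with UB 1B alone, where 1 member was called. Dimmer probe sets of the replication gene Rrm2 (-1.04, adjusted p = 0.0291) and the mitotic gene Kif22 (-1.11, adjusted p = 0.0277) were called lower in bud. The brightest probe sets of these genes gave 0.14 and 0.12. With UB 1B alone the dimmer ones gave -0.70 and -0.75. Mki67 had 1103 and 1453 in bud and 522 and 655 in mesenchyme (adjusted p = 0.0126). UB 1B alone gave 0.90 for Mki67 and 0.90 for Plk4, under 2-fold, and 1.21 for Ttk, which was called. Without MM 1B Mki67 gave 0.93 (adjusted p = 0.0771) and Plk4 0.90 (adjusted p = 0.0301). The cell cycle inhibitor gene Cdkn1c, which is imprinted, was lower, with 520.3 and 607 in bud and 3691 and 3162 in mesenchyme (difference -2.57, SE 0.16, adjusted p = 0.000273). UB 1B alone gave -2.68. A second Cdkn1c probe set gave 406 and 328 in bud and 418 and 378 in mesenchyme (difference -0.12). Of 7 tested imprinted genes Cdkn1c and Impact (-1.20) were called (28.6%, beside 5.42% of all genes). Impact was not called with UB 1B alone (-0.90) or without MM 2B (adjusted p = 0.065).

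Ribosomal protein genes (14 tested), respiratory chain subunits (17) and genes of glycolysis and hypoxia (6) had 0 called members in limma's fit. Their medians were 0.19, 0.04 and -0.10. At an unadjusted p under 0.05 the numbers passing were 3, 1 and 2 above 0, and 1, 0 and 1 below it. Of all tested genes 19.2% passed so above 0 and 13.6% below it. The glycolysis median was 0.23 with UB 1B alone, a change of sign. Of 9 tested sterol and fatty acid genes (11.1% called, beside 5.42% of all genes) the desaturase gene Scd2 was called lower. It had 611 and 276 in bud and 1294 and 1260.9 in mesenchyme (-1.60, adjusted p = 0.0254). UB 1B alone gave -1.05 and kept the call. Its call was lost without MM 1B (adjusted p = 0.08) and without MM 2B (adjusted p = 0.0816).

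Some markers of blood and vessels were lower in bud. Hbz, an embryonic globin, had 369 and 356 in bud and 4385 and 5138 in mesenchyme (difference -3.65, SE 0.14, adjusted p = 8.07e-05). Hba-a1 had 773 and 623 in bud and 6140.1 and 5868 in mesenchyme (difference -3.08, adjusted p = 0.000171), and Hbb-bs differed by -2.65. Globin genes have near-identical copies, so these probe sets may read more than the named gene. Of 6 tested erythroid genes 2 were lower (33.3%, beside 2.22% of all genes) and 0 higher, namely Hbz and Hba-a1. The summed intensity of the list was 2549 and 2375 in bud against 12246 and 12760 in mesenchyme. Hbz and Hba-a1 made up most of the mesenchyme sum.

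The endothelial cadherin Cdh5 had 33.9 and 23.7 in bud and 192 and 219 in mesenchyme (difference -2.32, SE 0.17, adjusted p = 0.000606). Ramp2 (-1.32) and the sphingosine phosphate receptor S1pr1 (-1.49) were called as well. That made 3 of 10 tested endothelial markers lower (30.0%, beside 2.22% of all genes) and 0 higher, all 10 being under 0. Of the 3, Cdh5 and S1pr1 reached the intensity needed for a test through their mesenchyme mean only. The defining markers Pecam1, Tie1 and Tek were on the design but too dim to be tested. Pecam1 had 68.4 and 56.4 in bud and 99.4 and 98.05 in mesenchyme, and Tie1 had 25.4 and 30.8 in bud and 51.0 and 63.0 in mesenchyme. Tek had 96.2 and 83.2 in bud and 98.6 and 93.2 in mesenchyme, and no defining marker on the design read 0. The summed intensity of the 16 endothelial markers on the design was 2376 and 2112 in bud and 3705 and 3566 in mesenchyme. UB 1B alone kept the globin and the endothelial calls. Of 5 macrophage, 8 neuronal and 2 muscle genes tested 0 were called. At an unadjusted p under 0.05 the numbers passing above 0 were 0, 2 and 0, beside 19.2% of all tested genes. Below 0 they were 1, 2 and 2, beside 13.6%. The summed macrophage intensity was 2455 and 2312 in bud and 2795 and 2776 in mesenchyme. For the muscle genes on the design the sum was 668 and 613 in bud and 915 and 855 in mesenchyme. The mesenchyme pool thus held more erythroid and endothelial signal than the bud pool, the erythroid part being mostly globin. The share of this signal in the mesenchyme differences was not tested.

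The bud labelings disagreed by 2-fold at a small set of probe sets, all in 1 direction. UB 2B was at least 2-fold below UB 1B at 54 tested probe sets (1.16%) and at least 2-fold above it at 0. Between the mesenchyme arrays the counts were 4 and 0. The difference between labelings had an SD of 0.30 in bud and 0.19 in mesenchyme, and the correlations across tested probe sets, which are not independent replicates, were 0.958 in bud and 0.984 in mesenchyme. At 49 of the 54 UB 2B lay under both mesenchyme arrays, and at 42 UB 1B was within 2-fold of the mesenchyme mean.

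Pkm, the glycolytic pyruvate kinase, was the largest case, with 2312 on UB 1B and 204 on UB 2B, against 2285 and 2109 in mesenchyme. Tuba1a, an alpha-tubulin, had 311 and 42.8 in bud and 463 and 607 in mesenchyme. The RNA-binding protein gene Hnrnpc had 1732 and 400.5 in bud and 2119 and 2293 in mesenchyme, and Trim27 had 986 and 252 in bud and 877 and 939.9 in mesenchyme. The mean differences were -1.63, -1.98, -1.38 and -0.84 and were not called (adjusted p between 0.117 and 0.354). UB 1B alone gave 0.07, -0.74, -0.34 and 0.12. In the other direction the largest gaps were smaller. The signal recognition particle gene Srp54a had 244 and 485 in bud and 324 and 304 in mesenchyme. The replication licensing inhibitor gene Gmnn had 391 and 677 in bud and 274 and 269.9 in mesenchyme (difference 0.88, adjusted p = 0.056). The ubiquitin ligase gene Rnf44 and the splicing gene Rnpc3 had differences of -0.01 and -0.03. For Srp54a, Gmnn, Rnf44 and Rnpc3 UB 1B alone gave -0.34, 0.50, -0.44 and -0.42, and none was called.

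**Figure D4:**
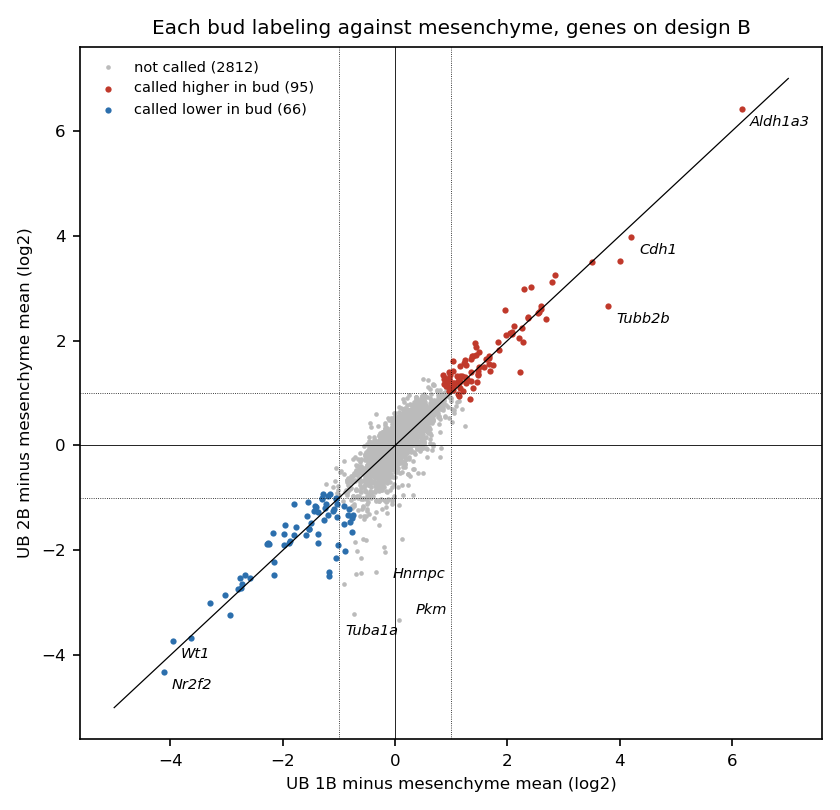
Difference of each bud array from the mesenchyme mean (log2), UB 1B on the horizontal and UB 2B on the vertical axis, for 2973 genes. Red and blue points were called higher and lower in bud, grey points were not called, dotted lines mark 2-fold and the diagonal marks equality. Pkm, Tuba1a and Hnrnpc hang below the diagonal, with UB 1B at 0.07, -0.74 and -0.34, while Aldh1a3, Cdh1, Wt1 and Nr2f2 lie close to it and Tubb2b below it.

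Genes with more than 1 tested probe set showed how far such gaps belonged to a probe set and not to a gene. Of 426 such genes 34 had at least 1 called probe set, 0 had calls in opposite directions and 6 had all their tested probe sets called. Of the 426, 14 had a probe set at least 2-fold lower on UB 2B than on UB 1B, and in 9 of these another probe set was not lower by even 1.2-fold. Hnrnpl, a splicing factor, had 1043 and 352 in bud and 2148 and 2647 in mesenchyme at a probe set that was called lower. Another of its probe sets gave 2027 and 2204 in bud and 2234 and 2569 in mesenchyme. These probe sets gave -1.18 and -0.24 with UB 1B alone. A probe set of the mitochondrial ribosomal gene Mrpl40 had 10334 and 5868 in bud and 2160.4 and 2234 in mesenchyme, while 2 others of that gene differed by 0.12 and 0.09. The first gave 2.23 with UB 1B alone. Hnrnpl and Mrpl40 were picked after their values were seen.

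In all, 22 probe sets differed by 2-fold without passing the test. Of these 21 were lower in bud, and, counted separately, 21 had UB 2B at least 2-fold below UB 1B. The largest bud spread among called probe sets without a symbol was that of rc_AA901152_g_at, also picked by its values, with 13944 and 1806 in bud and 397 and 340.1 in mesenchyme. Its bud arrays both lay above the mesenchyme arrays but far from each other, at -2.94 (log2) for UB 2B minus UB 1B.

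The other rat designs were hybridised with the same tissues' RNA, so they repeat the measurement with other probe sets and are not independent of design B. Values are set side by side without a test for part of the named genes that they carry. Tubb2b had 4312 and 4440 in bud and 801 and 652 in mesenchyme on the first design, where the bud labelings did not diverge. Phyh had 535 and 671 in bud and 70.6 and 81.5 in mesenchyme on design C, a difference of 2.74 beside 3.05 on design B. Ctsh differed by 2.00 and Oxr1 by 2.39 on the first design, while on design C another Oxr1 probe set gave 0.18. Bex1 gave 2.39 on design C. The second bud labeling stood apart on these designs too, with a Gapdh 3' to 5' ratio of 4.43 on UB 2 and 4.26 on UB 2C. With the first bud labeling alone, chosen after seeing the data, the differences were 2.55 for Tubb2b, 2.59 for Phyh, 2.18 for Ctsh, 2.20 for Oxr1 and 2.39 for Bex1, and 0.32 for the Oxr1 probe set of design C.

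For the genes lower in bud the first design gave -2.43 for Nr2f2, -2.60 for Wt1, -2.12 for Foxc2, -1.40 for Cdh2 and -1.60 for Efnb1. With UB 1 alone these were -2.27, -2.52, -2.19, -1.60 and -1.53. Others did not repeat with the probe sets used there. Cdkn1c gave 119 and 112 in bud and 115 and 128 in mesenchyme on the first design. Scd2 differed by -0.10 on the first design and by 0.01 on design C, beside -1.60 on design B. Lama5 gave 0.21 on the first design, beside 2.09, and Lamc1 gave 0.32 there and 1.65 on design C, beside 1.69. With the first bud labeling alone Lama5 gave 0.53 on the first design, and Lamc1 gave 0.68 there and 1.40 on design C. On the first design Lama5 had 391 on UB 1 and 245 on UB 2, and 251 and 283 in mesenchyme. Lamc1 had 568 on UB 1 and 338 on UB 2, and 352 and 344 in mesenchyme. Pkm had 6048 and 7151 in bud and 4898 and 5678 in mesenchyme on the first design, and Hnrnpc differed by 0.01 there. Weaker than on design B were Bmp7 (0.36), Kcnk1 (0.92) and Slc12a2 (-0.48) on the first design. So were Hoxc9 (-0.67) and Impact (-0.09) on design C. The first bud labeling alone gave 0.67, 1.13, -0.34, -0.62 and -0.12 for these genes. Plk4 (0.96, first design) and Clic4 (-0.96, design C) lay nearer their design B values, with 0.81 and -0.79 for the first bud labeling alone.

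The mouse arrays measured other RNA, from E12.5 tips, stalks and mesenchyme, and there were 2 arrays of each. Of the 95 genes called higher in rat bud 86 were measured in mouse. At least 2-fold higher than mouse mesenchyme were 42 of these in tips (48.8%) and 31 in stalks (36.0%), with no test applied. Over all 2613 genes tested on design B and measured in mouse the shares were 4.21% in tips and 2.68% in stalks. Of 61 measured genes called lower in rat bud, 35 were at least 2-fold lower in mouse tips (57.4%) and 3 in mouse stalks (4.92%), where the shares over all genes were 4.09% and 0.306%. Of the genes called with UB 1B alone and measured in mouse, an alternative added after seeing the data, 40 of 82 higher genes were at least 2-fold higher in tips (48.8%) and 28 in stalks (34.1%). Of the 59 lower ones 35 were at least 2-fold lower in tips (59.3%) and 3 in stalks (5.08%). The difference between mouse tips and stalks in these counts was not tested.

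Cldn6 had 2182 and 2405 in mouse tips, 1136 and 1215 in mouse stalks and 52.9 and 36.4 in mouse mesenchyme. Kcnk1 differed from mouse mesenchyme by 4.11 in tips and 3.09 in stalks, and Wfdc2 by 3.69 in tips and 2.49 in stalks. Cdh11 had 514 and 454 in mouse tips, 3707 and 3773 in stalks and 4444 and 4498 in mesenchyme, so its stalk values lay near those of mesenchyme. Hoxd10 likewise had 203 and 175 in tips, 985 and 929 in stalks and 1372 and 1353 in mesenchyme.

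Several genes of the rat bud did not stand out in mouse. Iah1 differed by -0.32 in mouse tips and -0.21 in stalks, beside 2.96 in rat bud. Phyh differed by -0.16 in tips and 0.17 in stalks, and Ctsh by 0.05 and 0.11. In mouse tips the cell cycle genes Mki67, Plk4 and Ttk differed by 0.07, 0.20 and 0.03. Rdh10 and Ccn2 lay on the opposite side in mouse. Rdh10 had 835 and 809.8 in mouse tips and 989.5 and 1003 in stalks, against 2022 and 2034 in mesenchyme. Ccn2 had 256 and 251 in mouse tips and 212 and 183 in stalks, against 104.4 and 86.03 in mesenchyme. Species, stage and probe set differ together here and cannot be told apart.

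**Figure D5:**
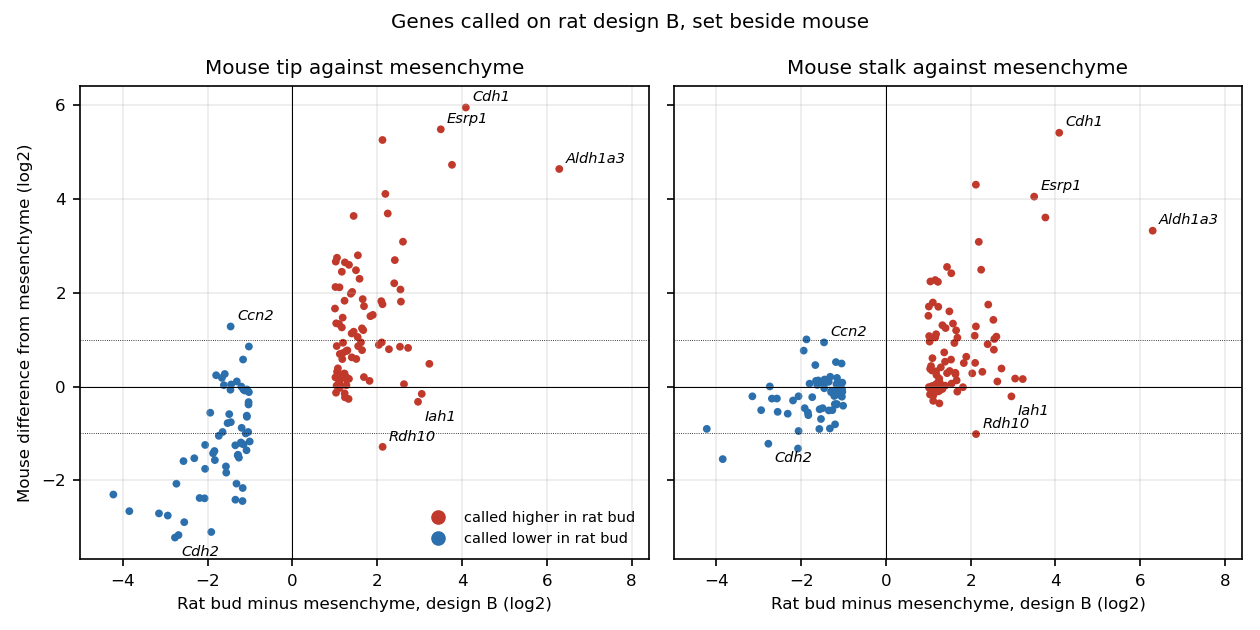
Genes called on rat design B and measured in mouse. The horizontal axis is the rat bud minus mesenchyme difference and the vertical axis the mouse difference from mesenchyme for tips (left) and stalks (right), both log2; red and blue points were called higher and lower in rat bud, and dotted lines mark 2-fold. In tips 42 of 86 red points lie above the upper line and 35 of 61 blue points below the lower one, Iah1 lies near 0, and Rdh10 and Ccn2 lie on the opposite side.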

How the data were processed

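The authors deposited a linear intensity for each probe set on each array, per the file headers. No source used here gives its scaling, its summary method or a genome build. Intensities of the 4 arrays of design B were quantile normalised, 16 was added and log2 taken, and 59 control probe sets were left out. Bud and mesenchyme were compared with limma 3.58.1 in R 4.3.3 (lmFit, eBayes with an intensity trend, 4 arrays, no covariate), and p was adjusted by Benjamini-Hochberg over all 4667 tested probe sets. Every adjusted p in the text comes from such a limma fit. The number of arrays, 2 per tissue, limits the precision. The scripts were tested on simulated data.

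Gene names came from the platform annotation. Entrez identifiers matched the reference table for 5333 of 5351 probe sets with 1 symbol, and 0 symbols were updated. A gene was represented by its brightest single-symbol probe set. The genes named are the 12 largest called on each side with each bud array 2-fold from mesenchyme, every called member of 32 gene lists, the 4 with the largest gap between bud labelings each way, and 2 unnamed probe sets each way. Members, lists and motifs were chosen with earlier results of these data known. Other tables were normalised in the same way. A gene counted as measured there if a tissue mean reached that table's median. The labelings' numbers were checked for pairing by the correlation of same-numbered deviations (0.22), and the labels do not say that a number marks a shared batch. Promoter sequences are from RefSeq (GRCr8).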

Additional observations from a re-analysis of the deposited data

Results flagged for a closer look

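Rdh10 and Ccn2 were called in rat and lay on the opposite side of mesenchyme in every mouse tip and stalk array. Rdh10 differed by 2.13 in rat bud, and by -1.29 in mouse tips and -1.01 in mouse stalks. Ccn2 differed by -1.46 in rat bud, and by 1.28 in mouse tips and 0.94 in mouse stalks. The difference between species was not tested. A second rat probe set for Rdh10 on design B gave -0.10, and the Rdh10 probe sets of the first design and design C gave 0.57 and 1.66, or 0.91 and 1.71 with the first bud labeling alone.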

How the results depend on the processing

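The number of probe sets called was 143 higher and 128 lower in bud. It was 91 and 81 with a pseudocount of 64, 94 and 70 when the test was against a 1.5-fold difference, and between 142 and 165 higher and 127 and 145 lower with deposited values, a pseudocount of 1, no filter or no intensity trend. With the labeling number as a replicate block it was 144 and 132, and no named gene changed its call. Leaving out 1 array gave 135 to 160 higher and 91 to 210 lower, the extremes of the lower count being those without MM 2B and without UB 1B. The named genes were followed through all alternatives as 861 values, of which 796 kept direction and call, 52 lost the call, 5 gained one and 8 changed sign. The sign changes were all in genes that were not called. Pkm ranged from -3.33 to 0.0746 with 1 array left out, Trim27 from -1.79 to 0.117, Srp54a from -0.342 to 0.604, Rnf44 from -0.444 to 0.422 and Rnpc3 from -0.424 to 0.359. In these ranges the sign changed without UB 2B for Pkm, Trim27 and Srp54a, without UB 1B or MM 1B (0.0237) for Rnf44, and without UB 1B or MM 2B (0.0949) for Rnpc3. Rnf44 gave 0.0261 with deposited values. The cause was not tested. The 5 gained calls came without UB 1B and were Pkm (-3.33), Tuba1a (-3.21), Hnrnpc (-2.41), Trim27 (-1.79) and Gmnn (1.27). With the mean of all probe sets of a gene Impact lost its call (-0.65). Of the epithelial list 6 members were called with a pseudocount of 64, against 11, and its median was 0.36 with no filter on dim probe sets.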
